A study of Rattus norvegicus with 36 samples.

Results

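Liver transcripts of rats given the highest dose of hexabromocyclododecane (HBCD), 641 mg/kg, were set against those of rats given 0.06, 0.641 or 6.41 mg/kg, pooled. HBCD is a brominated flame retardant. The comparison took the 6 arrays titled for 641 mg/kg and the 18 arrays titled for the 3 lower doses, 24 of the 36 arrays of the series. The 6 corn oil vehicle arrays and the 6 arrays of 64.1 mg/kg did not enter it. All 24 livers came from male Harlan Sprague Dawley rats, 7 weeks old when dosing began. HBCD was given by oral gavage in corn oil at 5 ml/kg on 5 consecutive days, and the left liver lobe was taken 1 day after the last dose. Every rat of the pooled groups had therefore also received HBCD, so a difference reported here is one between a high dose and low doses, not between treated and untreated animals. Replicates are numbered 1 to 6 per group in the labels, which do not say whether every array is a different animal, and the p-values reflect the variation among these arrays, part of which may be technical.

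Hepatocytes meet foreign compounds with the nuclear receptors CAR and PXR, which switch on cytochrome P450s, conjugating enzymes and export pumps, and with the transcription factor NRF2, which raises the enzymes that make and use glutathione. The same cells build and burn fatty acids, make urea from the nitrogen of amino acids, pass methyl groups through the methionine cycle and secrete most plasma proteins. Many genes of these tasks are strongly expressed in liver.

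Values are log2 levels per probe set, so a difference of 1 is a 2-fold change. Of 31042 probe sets tested, 332 were higher at 641 mg/kg (1.07%) and 204 lower (0.657%), 1.73% in either direction, at an adjusted p under 0.05 in limma, which fits all probe sets together. Without replicate 2 of 641 mg/kg the counts were 219 higher and 130 lower, without replicate 1 the rises were 220, and without replicate 5 the falls were 128. These called probe sets included 251 of 14217 genes higher (1.77%) and 139 lower (0.978%), where a gene is represented by its probe set of highest mean. Array medians lay between 4.83 and 4.9. Counts of called list members are read against the 1.77% and 0.978% of all genes. These shares include dim genes, whereas many list members are strongly expressed. Refitting only the 11074 brighter ones, averaging 6 or more in a group, called 451 probe sets higher and 352 lower. Calls were thus more frequent among bright probe sets, and the all-gene shares are a low bar for lists of bright genes. Whether such a list exceeds other genes of like level was not tested. The mean over 9 hepatocyte markers ran from 13.27 to 13.37 at 641 mg/kg and from 13.32 to 13.45 in the pool. Of the 9, 8 lay below 0 in the log2 difference (median -0.08), 5 had an unadjusted p under 0.05, and 1, Apoa1, was called lower. The part of this shift in the falls of hepatocyte genes was not tested. The 3-prime minus 5-prime difference of the Gapdh control, a sign of RNA integrity, was -0.0226 ± 0.026 at 641 mg/kg and -0.0135 ± 0.066 in the pooled arrays (SD, n = 6 and 18; exact permutation p = 0.772, two-sided). That of the actin control was 1.14 ± 0.063 at 641 mg/kg and 1.19 ± 0.13 in the pooled arrays (exact permutation p = 0.361).

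Most of the changes were small. Of the 332 probe sets called higher, 289 rose by less than 1.5-fold (0.931% of those tested) and 139 by less than 1.2-fold, and the smallest called rise was 1.10-fold. Of the 204 called lower, 193 fell by less than 1.5-fold (0.622%) and 77 by less than 1.2-fold, and the smallest called fall was 1.09-fold. The median called rise was 1.23-fold and the median called fall also 1.23-fold. Tested against a minimum change of 1.2-fold, 34 probe sets were called higher and 6 lower, so most of these calls show a difference from 0 and not one beyond 1.2-fold. Rises reached at least 2-fold in 14 probe sets and falls in 5. The 5 were those of Scd and Igfbp1, both probe sets of Slc6a6, and a dimmer probe set of Lox, the enzyme that cross-links collagen. The Lox probe set was chosen after its value was seen (2.24-fold lower, 95% CI 1.48 to 3.41, adjusted p = 0.0347). It overlapped the pool, with 3 of the 6 arrays at 641 mg/kg below all 18 pooled arrays. The brighter probe set of Lox was not among these 5. All 6 arrays at 641 mg/kg lay above all 18 pooled arrays in 78 of the 332 probe sets called higher, against 79 of all 31042 (0.254%). They lay below all 18 in 28 of the 204 called lower, against 30 of all 31042 (0.0966%). Counted by gene, 0.443% of the 14217 genes lay wholly above the pool and 0.162% wholly below it.

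**Figure D1:**
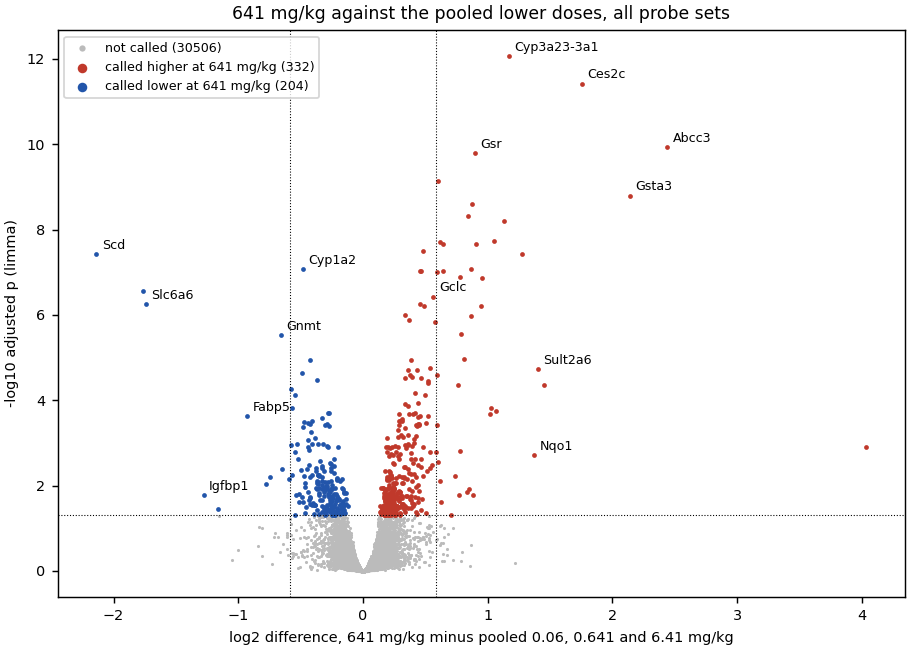
Log2 difference of 641 mg/kg minus the pooled lower doses (horizontal) against the -log10 adjusted p of limma (vertical) for all 31042 probe sets. Most of the 332 probe sets called higher and of the 204 called lower lie within 1.5-fold, and the rises reach further out than the falls.

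More probe sets were called against the larger pool than against any single low dose of 6 arrays. The median standard error of the log2 difference over all probe sets was 0.0665 against the 18 pooled arrays, and 0.0789, 0.0809 and 0.0786 against 0.06, 0.641 and 6.41 mg/kg alone. Against 0.06 mg/kg alone, 112 probe sets were called higher (0.361%) and 36 lower (0.116%). Against 0.641 mg/kg alone the calls were 89 higher (0.287%) and 57 lower (0.184%). Against 6.41 mg/kg alone they were 114 higher (0.367%) and 49 lower (0.158%). These fits share the 641 mg/kg arrays, and the single doses are parts of the pool. Among the genes taken by the naming rule, the falls and small rises called against the pool but against none of the 3 doses alone were those of Igfbp1, Cyp17a1, Irs3, Ccnd1, Abcb4, Pfkfb1, Cd8a, Psme1, Psmb3, Ctsh, Ctsl, Ctsd, Cyp2b3, Cyb5a, Nsdhl, Apoa1, Ndufa5, Cyp4a3, Mcm6, Nr4a2 and Gpi. Many of these calls were borderline. Against the full pool, Igfbp1, Irs3, Ccnd1, Pfkfb1, Cd8a, Ctsh and Ctsl lost the call when some single array of 641 mg/kg was left out. So did Ctsd, Cyp2b3, Nsdhl, Apoa1, Ndufa5, Mcm6 and Nr4a2. Psme1 lost it with the mean of its probe sets.

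**Figure D2:**
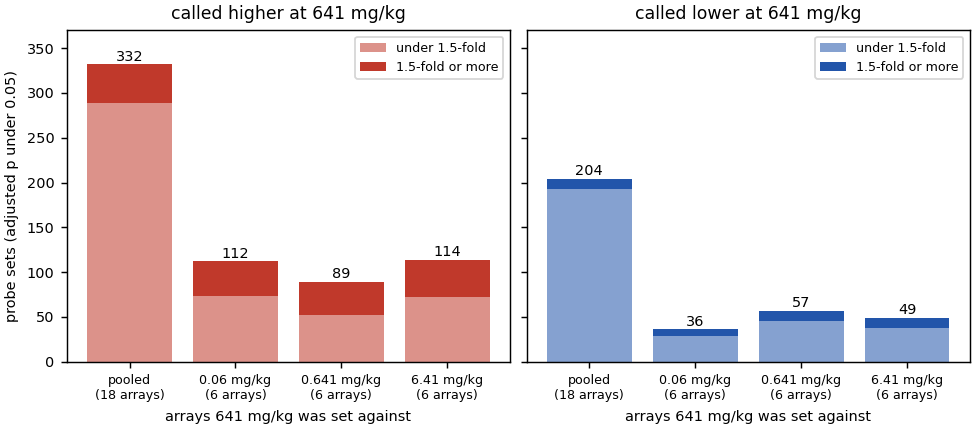
Number of probe sets called at 641 mg/kg (vertical) against the pooled 18 arrays and against each single low dose (horizontal), split at 1.5-fold. Against the pool 332 were called higher and 204 lower, and the paler part of each bar, under 1.5-fold, holds most of the gain.

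The 3 lower doses were not told apart from each other. A moderated F test among 0.06, 0.641 and 6.41 mg/kg called 0 of 31042 probe sets, and 1134 (3.65%) had an unadjusted p under 0.05. Those 1134 included 22 of the 332 called higher and 7 of the 204 called lower. In Gsta3, called higher, the means were 7.45, 7.84 and 8.01 at 0.06, 0.641 and 6.41 mg/kg (unadjusted p = 0.0129 in the F test). In the pairwise fits 0 probe sets were called, with 1425 at an unadjusted p under 0.05 for 6.41 against 0.641 mg/kg, 1070 for 6.41 against 0.06 mg/kg and 1175 for 0.641 against 0.06 mg/kg. In all 332 probe sets called higher and all 204 called lower, the high-dose mean was beyond each of the 3 lower-dose means in the same direction. Calls against the pool of these same 3 doses nearly fix this outcome, so it is no separate evidence from each dose. The median deviation of each 641 mg/kg array from the pooled mean, whose sign the calls on these same arrays fix, was 0.34, 0.37, 0.26, 0.24, 0.30 and 0.24 over the called rises for replicates 1 to 6, and -0.26, -0.34, -0.24, -0.28, -0.33 and -0.31 over the called falls.

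The largest fall was that of Scd, a desaturase whose products are monounsaturated fatty acids. Its log2 level was 7.45, 8.09, 8.06, 8.41, 8.24 and 7.58 on the 641 mg/kg arrays, against a lowest, median and highest value of 9.40, 10.14 and 11.29 in the pool. Every array at 641 mg/kg lay below every pooled array, and the nearest values were about a log2 unit apart. The mean was 7.97 ± 0.38 at 641 mg/kg and 10.11 ± 0.48 in the pool (SD, n = 6 and 18), which is 4.41-fold lower (95% CI 3.33 to 5.82; adjusted p = 3.74e-08). The 3 pooled doses had means of 10.29, 10.10 and 9.95 at 0.06, 0.641 and 6.41 mg/kg. They did not differ from each other in the F test (unadjusted p = 0.373).

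Of 27 measured genes of fatty acid and triglyceride synthesis, 4 fell and 0 rose, where 0.978% of all genes were called lower. Beside Scd these were genes that lengthen and desaturate polyunsaturated fatty acids. Elovl5, an elongase, stood at 11.89, 11.85, 11.80, 11.91, 11.95 and 11.96 at 641 mg/kg, against 12.04, 12.17 and 12.31 (lowest, median and highest) in the pool. The groups did not overlap, although the fall was 1.21-fold (95% CI 1.14 to 1.28; adjusted p = 2.03e-04). Both probe sets of Elovl5 were called. Elovl2, an elongase of longer chains, was 1.22-fold lower (adjusted p = 0.00117), and Fads2, the desaturase that opens polyunsaturated fatty acid synthesis, was 1.26-fold lower (adjusted p = 0.0301). Genes of the synthesis of palmitate did not pass the test: the log2 difference of fatty acid synthase Fasn was -0.07 (adjusted p = 0.88), and that of acetyl-CoA carboxylase Acaca 0.06 (adjusted p = 0.81). Srebf1, whose product switches on these genes, stood at -0.30 (adjusted p = 0.22). The list median was -0.07, against -0.00124 over all genes. Malic enzyme Me1 was the highest member, with a log2 difference of 0.36 (adjusted p = 0.064).

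Genes that carry and oxidise fatty acids also stood among the falls. Fabp5, a fatty acid binding protein, had 9.01, 8.93, 8.72, 9.41, 8.91 and 7.94 at 641 mg/kg, against 9.27, 9.73 and 10.27 (lowest, median and highest) in the pool. Replicate 4 at 641 mg/kg lay inside the pooled range and the other 5 arrays lay below it. The mean was 8.82 ± 0.49 at 641 mg/kg and 9.75 ± 0.27 in the pool, 1.90-fold lower (95% CI 1.55 to 2.33; adjusted p = 2.33e-04). Cpt1a, which admits fatty acids to mitochondria, had 9.82, 9.99, 9.69, 9.76, 9.56 and 9.70 at 641 mg/kg, against 9.97, 10.21 and 10.55 in the pool. It was 1.39-fold lower (95% CI 1.25 to 1.55; adjusted p = 4.21e-04), in both of its probe sets. The fatty acid omega-hydroxylases Cyp4a3 (1.28-fold lower; adjusted p = 0.00606) and Cyp4a1 (1.34-fold lower; adjusted p = 0.0186) were the other called members of the list of PPARalpha targets and fatty acid oxidation. In that list 3 of 27 members fell and 0 rose, with a median log2 difference of -0.07. The Cyp4a genes are close relatives, and whether their probe sets read each other's transcripts was not tested. The mitochondrial beta-oxidation genes Acadm (-0.13; adjusted p = 0.085), Hadha (0.01; 0.98) and Cpt2 (0.09; 0.63) were not called, where the first value is the log2 difference.

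Of 28 measured secreted plasma proteins, 4 fell and 0 rose, where 0.978% of all genes were called lower, and the list median was -0.05. The 4 were Apoa4, Apoa1, Serpina6 and Igfbp1. Apolipoprotein gene Apoa4 had 10.82, 10.84, 11.18, 11.06, 10.64 and 11.00 at 641 mg/kg, against 11.05, 11.50 and 11.73 in the pool. It was 1.48-fold lower (95% CI 1.31 to 1.67; adjusted p = 1.50e-04), with 4 of the 6 arrays below the whole pool. Apoa1, the main protein of high density lipoprotein, was 1.16-fold lower (adjusted p = 0.0234), at 12.93 ± 0.14 at 641 mg/kg against 13.14 ± 0.090 in the pool. Serpina6, the carrier of glucocorticoids in plasma, was 1.2-fold lower (adjusted p = 0.0425). Igfbp1, which binds insulin-like growth factors and is repressed by insulin, had 8.37, 9.20, 8.93, 8.19, 7.99 and 6.95 at 641 mg/kg, against 8.25, 9.55 and 10.54 in the pool. Its groups overlapped and both were spread widely, at 8.27 ± 0.79 for 641 mg/kg and 9.55 ± 0.66 for the pool. The fall of 2.43-fold (95% CI 1.60 to 3.68; adjusted p = 0.0169) was lost when replicate 5 (adjusted p = 0.0575) or 6 (adjusted p = 0.0743) of 641 mg/kg was left out. Apoa1 was not called without replicate 2, 3 or 6 of 641 mg/kg (adjusted p from 0.0805 to 0.0915), and the count of called secreted proteins was 2 without replicate 2, 5 or 6.

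Slc6a6, the taurine transporter, had the next largest fall. It stood at 7.63, 7.24, 7.76, 7.40, 7.32 and 7.97 at 641 mg/kg, against 8.54, 9.26 and 10.03 in the pool, and the groups did not overlap. The fall was 3.35-fold (95% CI 2.57 to 4.36; adjusted p = 5.68e-07), and its other probe set was 3.40-fold lower. Taurine is used to conjugate bile acids. None of the other 13 measured genes of taurine, cysteine and glycine handling was called, and the list median was 0.00446.

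Enzymes of the urea cycle and of amino acid breakdown fell in 6 of 34 measured members, and 0 rose. The log2 difference of the list had a median of -0.05. Oat, ornithine aminotransferase, had 9.51, 8.91, 9.88, 9.36, 9.59 and 9.92 at 641 mg/kg, against 9.27, 10.32 and 10.83 in the pool. Its groups overlapped through 1 array of 0.06 mg/kg at 9.27, and the mean was 1.68-fold lower (95% CI 1.35 to 2.09; adjusted p = 0.00614). Ass1, argininosuccinate synthase of the urea cycle, had 11.97, 11.86, 12.23, 11.90, 11.96 and 12.14 at 641 mg/kg, against 11.99, 12.45 and 12.63 in the pool. It was 1.34-fold lower (95% CI 1.22 to 1.48; adjusted p = 3.57e-04). Prodh, which opens proline breakdown, was 1.39-fold lower (adjusted p = 3.23e-04), in 1 of 2 probe sets. Aspartate aminotransferase Got1 (1.26-fold lower; adjusted p = 0.00626), glutamate dehydrogenase Glud1 (1.14-fold; 0.00798) and kynureninase Kynu (1.21-fold; 0.0135) completed the called members. The other urea cycle enzymes were not called, with log2 differences of -0.17 for Asl (adjusted p = 0.056), -0.14 for Cps1 (0.18), 0.05 for Arg1 (0.75) and 0.12 for Otc (0.31).

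In the methionine cycle and one-carbon list, 3 of 26 members fell and 1 rose. Gnmt, glycine methyltransferase, which disposes of excess methyl groups, had 11.05, 10.98, 11.26, 10.90, 10.58 and 11.24 at 641 mg/kg, against 11.34, 11.68 and 11.91 in the pool. The groups did not overlap, and the fall was 1.58-fold (95% CI 1.42 to 1.77; adjusted p = 3.00e-06). Pemt, which methylates phosphatidylethanolamine to phosphatidylcholine, had 11.02, 11.02, 10.88, 10.98, 10.84 and 10.86 at 641 mg/kg, against 11.11, 11.19 and 11.36 in the pool. A fall of only 1.21-fold (95% CI 1.14 to 1.29; adjusted p = 2.00e-04) left no overlap here, since the SDs were 0.082 at 641 mg/kg and 0.073 in the pool. Cth, which cleaves cystathionine to cysteine, was 1.24-fold lower (adjusted p = 0.00806). Aldh1l1, a folate dehydrogenase, moved the other way, at 11.68 ± 0.17 for 641 mg/kg against 11.27 ± 0.15 for the pool (1.33-fold higher; adjusted p = 0.00102).

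Of 21 genes of gluconeogenesis and glycolysis, 3 fell and 1 rose, with a list median of -0.13. Pklr, the pyruvate kinase of liver, was 1.30-fold lower (95% CI 1.17 to 1.44; adjusted p = 0.00388) in both probe sets, with 5 of 6 arrays at 641 mg/kg below the whole pool. Pfkfb1, which sets the level of the glycolytic regulator fructose-2,6-bisphosphate, was 1.34-fold lower (adjusted p = 0.0191), and pyruvate carboxylase Pc 1.19-fold lower (adjusted p = 0.0224). Pfkfb1 was not called without replicate 4, 5 or 6 of 641 mg/kg (adjusted p from 0.074 to 0.0788), and without replicate 5 the count of falls in the list was 1. Glucose-6-phosphate isomerase Gpi rose 1.18-fold (adjusted p = 0.0121). Gulo, which makes ascorbate in rats, fell 1.29-fold (95% CI 1.2 to 1.38; adjusted p = 3.32e-05), to 11.38 ± 0.12 at 641 mg/kg against 11.75 ± 0.089 in the pool, in both probe sets.

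Cytochrome P450 genes outside the CAR and PXR targets held 2 falls and 0 rises among 26. Cyp1a2, the caffeine-metabolising P450 of liver, had 12.27, 12.26, 12.46, 12.27, 12.34 and 12.13 at 641 mg/kg, against 12.55, 12.77 and 12.88 in the pool. The fall of 1.40-fold (95% CI 1.31 to 1.49) had the smallest adjusted p of the falls under 1.5-fold (8.36e-08), and the groups did not overlap. Cyp17a1, the steroid hydroxylase and lyase, had 6.62, 6.80, 6.69, 7.04, 6.49 and 6.50 at 641 mg/kg, against 6.90, 7.45 and 8.59 in the pool. It was 1.71-fold lower (95% CI 1.35 to 2.17; adjusted p = 0.00937), and 1 array of 641 mg/kg lay inside the pooled range. Cyp2b3, a constitutive member of the Cyp2b family, was the 1 called fall among the CAR and PXR targets. Its mean was 12.67 ± 0.052 at 641 mg/kg and 12.81 ± 0.042 in the pool, 1.10-fold lower without overlap (adjusted p = 0.0208). It was not called without replicate 1, 3 or 5 of 641 mg/kg (adjusted p from 0.0529 to 0.0898).

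**Figure D3:**
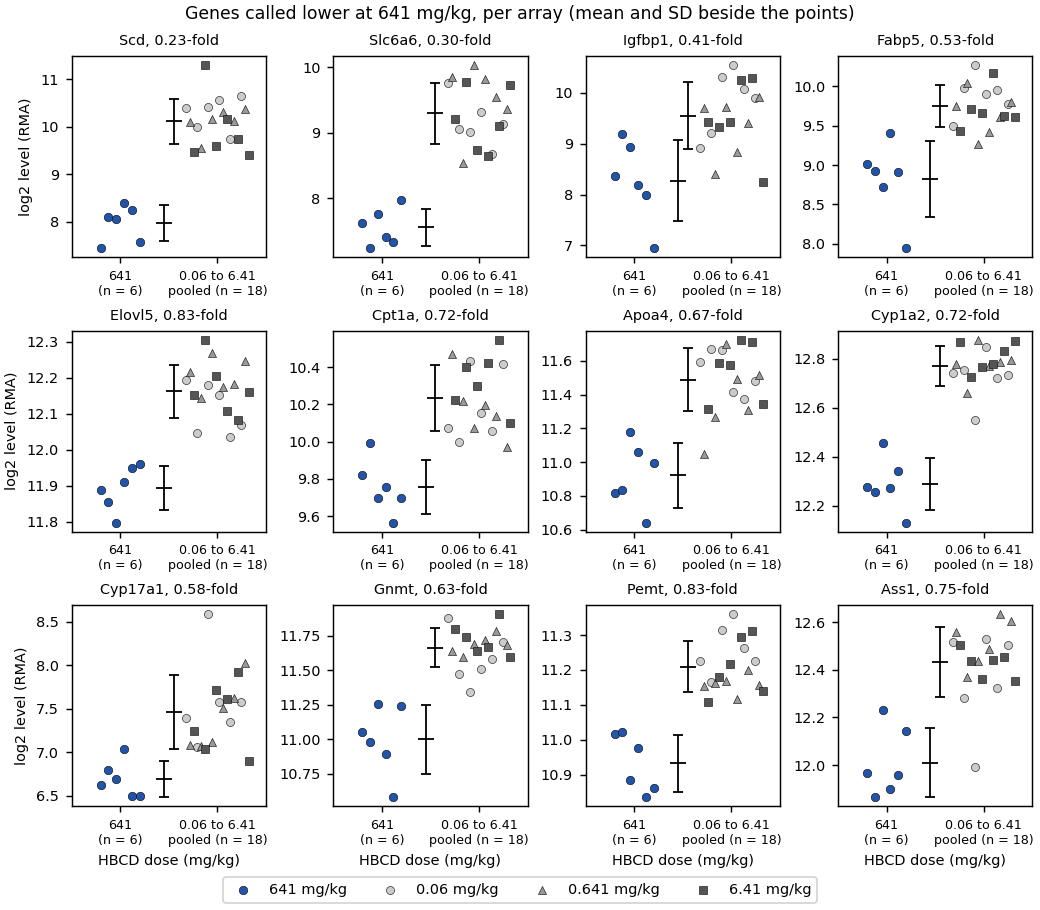
Log2 level of 12 genes called lower, per array (points), at 641 mg/kg (left, n = 6) and in the pooled lower doses (right, n = 18, marked by dose), with mean and SD as bars and the fold of 641 mg/kg over the pool above each panel. In Scd, Slc6a6, Gnmt, Cyp1a2, Pemt and Elovl5 the groups do not overlap, and in Igfbp1, Fabp5, Cyp17a1, Cpt1a, Apoa4 and Ass1 they do. The 12 are a choice from the named falls. Of all 14217 genes, 0.162% lay wholly below the pool.

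Bile acid genes went both ways, with 3 of 23 higher and 3 lower. Slc27a5, which activates bile acids before conjugation, fell 1.23-fold (adjusted p = 3.89e-04), the phospholipid exporter Abcb4 fell 1.28-fold (adjusted p = 0.00908), and Acox2, of peroxisomal side-chain shortening, fell 1.24-fold (adjusted p = 0.0316). Akr1d1, the steroid reductase of bile acid synthesis, had 12.39, 12.46, 12.43, 12.45, 12.45 and 12.42 at 641 mg/kg, against 11.90, 12.06 and 12.22 in the pool, a rise of 1.29-fold (95% CI 1.22 to 1.37; adjusted p = 1.33e-06) in 1 of 2 probe sets. The uptake transporters Slco1a1 (1.22-fold; adjusted p = 2.04e-04) and Slco1a4 (1.72-fold; adjusted p = 1.27e-07) were the other rises. Sulfotransferase Sult1a1 fell 1.19-fold (adjusted p = 0.00386), at 12.16 ± 0.078 for 641 mg/kg against 12.42 ± 0.10 for the pool. Sult1b1, a sulfotransferase of thyroid hormones, rose 1.16-fold (adjusted p = 0.00468). Hao2, a peroxisomal hydroxyacid oxidase, fell 1.22-fold (adjusted p = 3.53e-04) without overlap, with 12.08 to 12.38 at 641 mg/kg against 12.40 to 12.64 in the pool.

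Among other falls, Plekhb1, a membrane-associated protein with a pleckstrin homology domain, had closely spaced values at 641 mg/kg. They were 7.70, 7.70, 7.78, 7.73, 7.79 and 7.85, against 7.91, 8.34 and 8.63 in the pool, a fall of 1.5-fold (95% CI 1.33 to 1.68; adjusted p = 5.42e-05). Abhd2 (1.49-fold lower; adjusted p = 0.00111) and Abhd1 (1.40-fold lower; adjusted p = 2.31e-05), both of the alpha/beta hydrolase fold family, also did not overlap. Slco2a1, a prostaglandin transporter, fell 1.26-fold (adjusted p = 2.59e-04) without overlap and in both probe sets. Ccnd1, the cyclin of entry into the cell cycle, was 1.39-fold lower in all 3 of its probe sets (95% CI 1.18 to 1.64; adjusted p = 0.0243), at 8.51 ± 0.23 for 641 mg/kg against 8.99 ± 0.27 for the pool. It was not called without replicate 1, 3 or 5 of 641 mg/kg (adjusted p from 0.0563 to 0.112). The smaller named falls were those of Bmf, which promotes apoptosis (1.44-fold; 0.0024), the secreted kinase Pkdcc (1.44-fold; 0.00105), Ranbp17 of the importin-beta family (1.46-fold; 0.0016), Cimap1b (1.48-fold; 0.00573), Rasgef1b (1.51-fold in 1 of 2 probe sets; 0.00705) and Pxdc1 (1.35-fold in 1 of 2 probe sets; 1.12e-05), with adjusted p-values after the folds. Irs3, an insulin receptor substrate (1.46-fold lower; adjusted p = 0.0493), and the retinol binding protein Rbp7 (1.45-fold lower; adjusted p = 0.0164) had means at 641 mg/kg of 4.39 and 3.24, below every array median. Irs3 was not called without any 1 of replicates 1, 2, 3, 5 and 6 of 641 mg/kg (adjusted p from 0.0917 to 0.183), and Rbp7 not without replicate 2 (adjusted p = 0.0789).

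Small rises were most frequent among the NRF2 targets, of which 18 of 27 were higher and 0 lower, where 1.77% of all genes were called higher. All 27 log2 differences lay above 0, with a median of 0.40. Of the 18, 11 rose by less than 1.5-fold. The antioxidant response element that NRF2 binds has the core TGACNNNGC. These letters, on either strand, were in the 250 bases before the start of 5 of 24 NRF2 targets with a RefSeq promoter (20.8%), against 1439 of 11734 promoters of the genes measured here (12.3%) and 2793 of 27457 rat promoters (10.2%). Of the called members, 3 of 16 held them, each of these a small rise, and the promoters of all 3 are shown. Each is given in the direction of the gene from RefSeq on build GRCr8, with the matched core in capitals. That of Gclm is chr2:213031885-213032134 on the plus strand, that of Gstp1 chr1:210769706-210769955 on the minus strand, and that of Ugdh chr14:43202268-43202517 on the plus strand.
Gclm: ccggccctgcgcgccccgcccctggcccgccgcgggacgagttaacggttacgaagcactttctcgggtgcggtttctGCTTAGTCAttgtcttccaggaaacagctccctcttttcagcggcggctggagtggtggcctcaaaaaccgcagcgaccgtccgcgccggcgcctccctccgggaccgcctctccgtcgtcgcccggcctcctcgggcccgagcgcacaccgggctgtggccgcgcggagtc
Gstp1: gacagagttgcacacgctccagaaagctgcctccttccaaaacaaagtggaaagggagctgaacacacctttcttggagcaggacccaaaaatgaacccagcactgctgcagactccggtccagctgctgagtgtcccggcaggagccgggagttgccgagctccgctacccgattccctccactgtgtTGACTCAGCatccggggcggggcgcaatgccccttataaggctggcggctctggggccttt
Ugdh: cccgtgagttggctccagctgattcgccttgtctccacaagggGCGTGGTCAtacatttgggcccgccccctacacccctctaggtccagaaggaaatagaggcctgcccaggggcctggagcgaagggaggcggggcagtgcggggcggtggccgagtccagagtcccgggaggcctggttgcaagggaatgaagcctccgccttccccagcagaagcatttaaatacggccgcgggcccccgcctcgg
Counted from the gene's start, the core lay at -172 to -164 in Gclm and -207 to -199 in Ugdh, read on the opposite strand in both, and at -61 to -53 in Gstp1. The match describes these letters only and is no evidence of binding. Among all genes called higher, 25 of 211 promoters held the core (11.8%), and among those called lower 13 of 119 (10.9%).

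Transcripts of both subunits of the first enzyme of glutathione synthesis rose. Gclc, the catalytic subunit of glutamate-cysteine ligase, had 10.40, 10.42, 10.50, 10.46, 10.43 and 10.15 at 641 mg/kg, against 9.61, 9.85 and 10.02 in the pool. Replicate 6 lay below the other 5, and still above the whole pool, for a rise of 1.48-fold (95% CI 1.36 to 1.61; adjusted p = 3.76e-07). Gclm, the modifier subunit whose promoter is shown, rose 1.44-fold (adjusted p = 3.59e-05). Gsr, which regenerates glutathione, rose 1.86-fold (95% CI 1.71 to 2.04; adjusted p = 1.61e-10), to 9.36 ± 0.12 at 641 mg/kg against 8.46 ± 0.13 in the pool.

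Of the glutathione transferases among the small rises, Gstm1 had 13.16, 13.28, 13.17, 13.23, 13.17 and 13.24 at 641 mg/kg, against 12.58, 12.73 and 12.98 in the pool (1.37-fold; 95% CI 1.28 to 1.47; adjusted p = 5.68e-07). Gsta4, which conjugates products of lipid peroxidation, rose 1.40-fold (adjusted p = 6.07e-07), Gsta1 1.27-fold (adjusted p = 9.94e-07) and Gstp1 1.25-fold (adjusted p = 0.00628). A probe set listed under both Gsta5 and Gsta2 rose 1.46-fold (adjusted p = 0.00321), with 13.09 to 13.45 at 641 mg/kg against 12.27 to 13.11 in the pool. These genes form no list of their own, and the last was chosen after its value was seen. In Gstm1, Gsta4 and Gsta1 no array of 641 mg/kg overlapped the pool. In the thioredoxin system, Txn1 stood at 1.15-fold (adjusted p = 7.47e-04), its reductase Txnrd1 at 1.24-fold (adjusted p = 0.00855) and the sulfiredoxin Srxn1 at 1.35-fold (adjusted p = 3.66e-04). Tkt, of the pentose phosphate pathway that supplies NADPH, rose 1.32-fold (adjusted p = 2.77e-05), and carbonyl reductase Cbr1 1.31-fold (adjusted p = 0.00117). Ugdh, which makes the UDP-glucuronate used for glucuronidation, rose 1.30-fold (95% CI 1.22 to 1.40; adjusted p = 1.12e-05), to 11.45 ± 0.11 at 641 mg/kg against 11.06 ± 0.088 in the pool. Heme oxygenase Hmox1, another NRF2 target, was not called (log2 difference 0.06; adjusted p = 0.85).

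Of 22 heme and iron genes, 3 rose and 0 fell. Blvrb, a biliverdin reductase, had 10.45, 10.58, 10.51, 10.36, 10.51 and 10.41 at 641 mg/kg, against 9.82, 10.01 and 10.12 in the pool. The rise of 1.39-fold (95% CI 1.31 to 1.48; adjusted p = 3.23e-08) had the smallest adjusted p of the rises under 1.5-fold. Cyb5a, the cytochrome b5 that passes electrons to P450s and desaturases, rose 1.14-fold (adjusted p = 0.00127) without overlap, at 13.37 ± 0.025 for 641 mg/kg against 13.19 ± 0.047 for the pool. Aco1, the iron-regulated aconitase, rose 1.16-fold (adjusted p = 0.0227). Glyatl2, an acyltransferase related to glycine conjugation, rose 1.38-fold (95% CI 1.29 to 1.47; adjusted p = 9.22e-08), spermine synthase Sms rose 1.35-fold in both probe sets (adjusted p = 1.99e-05), and C8h11orf54 rose 1.45-fold in 1 of 2 (adjusted p = 1.76e-05). None of these 3 overlapped between the groups.

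**Figure D4:**
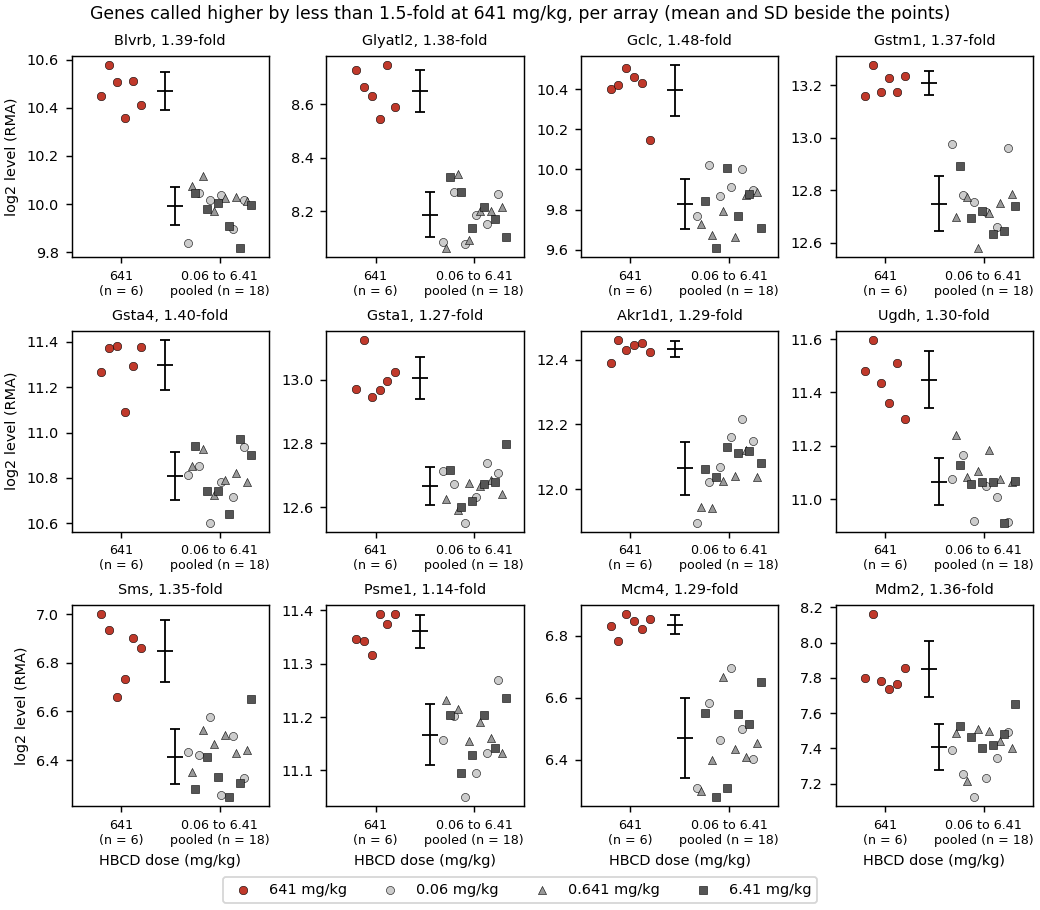
Log2 level of 12 genes called higher by less than 1.5-fold, per array (points), at 641 mg/kg (left, n = 6) and in the pooled lower doses (right, n = 18, marked by dose), with mean and SD as bars and the fold above each panel. In all 12 the 6 arrays at 641 mg/kg lie above the 18 pooled arrays, from 1.14-fold in Psme1 to 1.48-fold in Gclc. The 12 are a choice from the named small rises, of which others, such as Stmn1, Psmb3 and Fas, overlap the pool. Of all 14217 genes, 0.443% lay wholly above it.

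Every measured proteasome subunit stood slightly higher in the group mean. The mean over the list ran from 9.87 to 10.02 at 641 mg/kg against 9.78 to 9.92 in the pool, so the groups overlapped. Of 33 measured subunits, 7 were called higher and 0 lower, all 33 log2 differences lay above 0, and the median was 0.08. Of all genes 1.77% were called higher and 49.4% lay above 0. Psme1, a subunit of the activator that caps the core particle, had 11.35, 11.34, 11.32, 11.39, 11.37 and 11.39 at 641 mg/kg, against 11.05, 11.16 and 11.27 in the pool. The groups did not overlap at a rise of 1.14-fold (95% CI 1.09 to 1.2; adjusted p = 0.00167), and only 1 of its 2 probe sets was called. With the mean of its probe sets Psme1 was not called (adjusted p = 0.947). Psmb3 of the core rose 1.16-fold (adjusted p = 0.00573), at 10.33 ± 0.067 for 641 mg/kg against 10.11 ± 0.084 for the pool. Psma1 (1.12-fold), Psme4 (1.13-fold), Psmd14 (1.14-fold), Psmd2 (1.13-fold) and Psmb4 (1.10-fold) had adjusted p-values from 0.0179 to 0.0416. The count of called subunits was 2 without replicate 1 or 2 of 641 mg/kg, 3 without replicate 3 or 5, and 0 against any single lower dose.

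Replication and mitosis genes stood higher in most members, with few past the test. In DNA replication 3 of 32 were called higher and 28 lay above 0 (median log2 difference 0.12). The list mean ran from 5.54 to 5.67 at 641 mg/kg against 5.38 to 5.64 in the pool, an overlap. Mcm4, of the helicase that opens replication origins, had 6.83, 6.78, 6.87, 6.85, 6.82 and 6.86 at 641 mg/kg, against 6.28, 6.46 and 6.70 in the pool (1.29-fold; 95% CI 1.19 to 1.39; adjusted p = 2.12e-04). Its partner Mcm6 rose 1.39-fold (adjusted p = 0.0208) and the sliding clamp Pcna 1.14-fold (adjusted p = 0.0319). Mcm6 was not called when replicate 1 (adjusted p = 0.108) or 4 (adjusted p = 0.0861) of 641 mg/kg was left out. In mitosis 4 of 35 were called higher, 34 lay above 0, and the median was 0.38. Stmn1, which destabilises microtubules, rose 1.35-fold (adjusted p = 0.00321), the kinetochore gene Cenpf 1.33-fold (adjusted p = 0.0269), Prc1 of the central spindle 1.42-fold (adjusted p = 0.0446) and the kinase Melk 1.29-fold (adjusted p = 0.00494). Melk stood at 3.73 ± 0.12 for 641 mg/kg against 3.37 ± 0.17 for the pool, below every array median. The log2 differences of the proliferation marker Mki67 (0.68; adjusted p = 0.14) and of Cdk1 (0.65; adjusted p = 0.16) were the highest of the list and did not pass. The mean over the mitosis list ran from 5.10 to 5.43 at 641 mg/kg against 4.51 to 5.42 in the pool, so the groups overlapped. The count of called replication genes was 1 without replicate 1 or 4 of 641 mg/kg, and that of mitosis genes 2 without replicate 1, 4 or 5.

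The letters TTTGAA, the cell cycle homology region, were on either strand in the 250 bases before the start of 14 of 29 measured mitosis genes with a promoter (48.3%), against 1279 of 11734 promoters of the genes measured here (10.9%) and 4402 of 27457 rat promoters (16.0%). They were in 1 of the 4 called mitosis genes, and in 2 of 27 replication genes (7.41%). Of all genes called higher 29 of 211 held them (13.7%), and of those called lower 15 of 119 (12.6%).

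Of 21 genes of growth arrest and p53 targets, 2 rose and 0 fell. Mdm2, the ubiquitin ligase of p53, had 7.80, 8.16, 7.78, 7.74, 7.76 and 7.86 at 641 mg/kg, against 7.12, 7.43 and 7.65 in the pool, a rise of 1.36-fold (95% CI 1.24 to 1.49; adjusted p = 1.16e-04) in 2 of 3 probe sets. Fas, a death receptor, rose 1.32-fold in 1 of 3 (adjusted p = 0.0305), with every array of 641 mg/kg inside the pooled range, and was not called with the mean of its probe sets (adjusted p = 0.697). Fas was also not called without replicate 1, 2, 4 or 5 of 641 mg/kg (adjusted p from 0.0699 to 0.109). Myc, a driver of growth, had 8.42, 9.03, 8.95, 7.79, 8.96 and 8.24 at 641 mg/kg, against 7.20, 7.61 and 8.66 in the pool, with 3 of its 6 arrays inside the pooled range. Its rise of 1.84-fold (95% CI 1.38 to 2.46; adjusted p = 0.0166) was not called without replicate 2, 3 or 5 of 641 mg/kg (adjusted p from 0.0605 to 0.0769). Nr4a2, an immediate early gene, rose 1.16-fold (adjusted p = 0.0368) at means below every array median, of 4.38 at 641 mg/kg against 4.17 in the pool. It was not called without any 1 of replicates 2 to 6 of 641 mg/kg (adjusted p from 0.0529 to 0.121), and its other probe set was not called.

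Of 23 growth hormone and sex-dependent genes 4 rose and 1 fell, where 1.77% and 0.978% of all genes did. The rises were those of Cyp3a18, Slco1a1 and Cyp3a2, which are male-predominant in rats, and of the female-predominant sulfotransferase Sult2a2 (1.26-fold; adjusted p = 0.00368), and the fall was that of Hao2. Of 21 glucocorticoid-responsive genes 2 fell, Igfbp1 and Sult1a1, with a list median of -0.26. Of 16 genes of thyroid hormone handling 3 rose and 1 fell, and 1 of 30 ribosome biogenesis genes and Myc targets rose, Myc itself. Single calls of small size came from further lists. Among 26 lysosome and autophagy genes, the protease Ctsd rose 1.17-fold (adjusted p = 0.0174), while the proteases Ctsh and Ctsl fell 1.12-fold (adjusted p = 0.0318) and 1.11-fold (adjusted p = 0.0371). Ctsd was not called without replicate 1 or 3 of 641 mg/kg (adjusted p 0.0549 and 0.0604), Ctsh not without any 1 of 5 of the 6 (adjusted p from 0.0502 to 0.158), and Ctsl not without any 1 of 5 of the 6 (0.0798 to 0.112). Ndufa5, a subunit of respiratory complex I, fell 1.16-fold (adjusted p = 0.0406) as the 1 call among 48 respiratory chain genes, of which 37 lay below 0 with a median of -0.05. That count is near the 0.978% of all genes called lower. Nsdhl, of cholesterol synthesis, fell 1.17-fold (adjusted p = 0.0488) as the 1 call among 20. Ndufa5 and Nsdhl were each not called without 4 of the 6 replicates in turn (adjusted p from 0.101 to 0.145 and from 0.0675 to 0.16), nor with arrays centred on their medians (0.0851 and 0.0784).

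**Figure D5:**
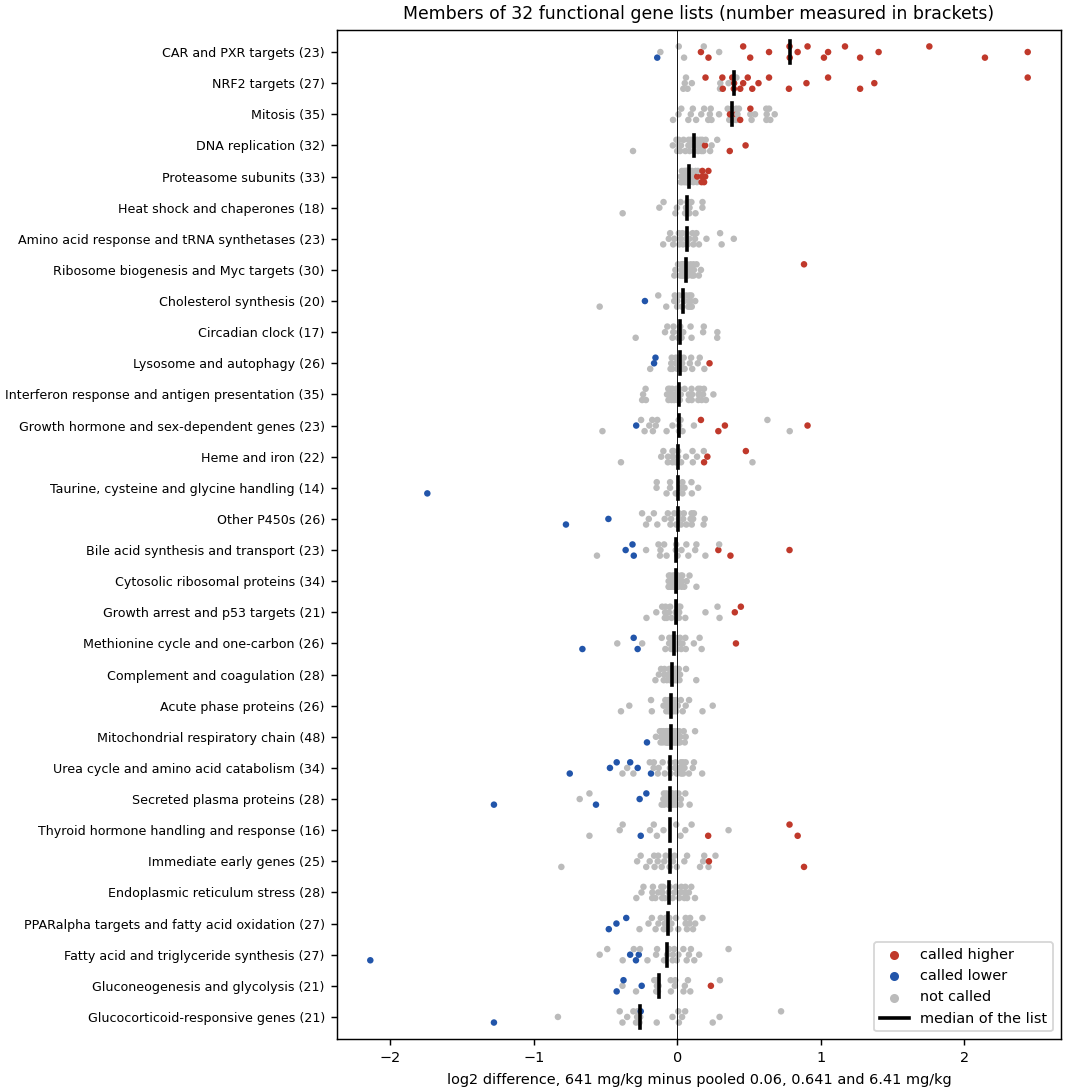
Log2 difference of 641 mg/kg minus the pooled lower doses (horizontal) for the members of 32 functional gene lists (rows, with the number measured), each point 1 gene, red where called higher, blue where called lower, with the list median as a bar. CAR and PXR targets and NRF2 targets stand to the right with 17 of 23 and 18 of 27 members called higher, proteasome subunits lie narrowly above 0, and ribosomal proteins lie around 0.

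No member was called in the lists for ribosomal proteins (34 genes), endoplasmic reticulum stress (28), the amino acid response (23), heat shock (18), acute phase proteins (26), complement and coagulation (28), the circadian clock (17) or interferon response and antigen presentation (35). At an unadjusted p under 0.05 they held 0, 5, 2, 3, 7, 5, 4 and 0 members in that order. The median log2 difference of the ribosomal proteins was -0.01. The complement list lay below 0 in 22 of 28 members, with a median of -0.04. Its member with the smallest p was Serpind1, a thrombin inhibitor (1.11-fold lower; adjusted p = 0.0673). In the other lists these members were Rpl28 (1.10-fold; adjusted p = 0.595), Edem1 (1.13-fold lower; 0.183), Slc7a5 (1.31-fold; 0.0638), Cct6a (1.13-fold; 0.171), Serpina3n (1.14-fold lower; 0.154), Npas2 (1.22-fold lower; 0.138) and Psmb8 (1.19-fold; 0.56).

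Of 23 CAR and PXR targets, which serve foreign compound metabolism, 17 were higher, where 1.77% of all genes were, with a median log2 difference of 0.78. Abcc3, Aldh1a1, Ephx1, Akr7a3 and Gstm1 also count among the 18 NRF2 targets called higher. Abcc3, an exporter of conjugates, had 7.96, 8.44, 7.48, 7.03, 7.61 and 7.04 at 641 mg/kg, against 4.43, 5.21 and 5.56 in the pool (5.43-fold; 95% CI 4.31 to 6.84; adjusted p = 1.18e-10). Gsta3, a glutathione transferase, rose 4.42-fold (95% CI 3.50 to 5.58; adjusted p = 1.59e-09) and the carboxylesterase Ces2c 3.38-fold (95% CI 2.93 to 3.89; adjusted p = 3.82e-12). Cyp3a23-3a1, a main drug-metabolising P450, rose 2.25-fold (95% CI 2.06 to 2.45; adjusted p = 8.52e-13), to 13.69 ± 0.056 at 641 mg/kg against 12.52 ± 0.14 in the pool. The sulfotransferase Sult2a6 (2.64-fold), the aldehyde reductase Akr7a3 (2.42-fold), the lens crystallin relative Cryl1 (2.19-fold), the glucuronosyltransferase Ugt2b7 (2.10-fold, with a pooled mean of 4.29, below every array median) and the retinaldehyde dehydrogenase Aldh1a1 (2.07-fold) followed, with adjusted p-values from 6.44e-09 to 1.80e-04. Cyp3a18 (1.87-fold; adjusted p = 2.21e-08) and Ugt2b1 (1.79-fold; adjusted p = 4.82e-09) did not overlap between the groups. The quinone reductase Nqo1 had 8.32, 8.59, 8.30, 10.03, 8.34 and 7.99 at 641 mg/kg, against 6.92, 7.09 and 9.36 in the pool. Its rise of 2.59-fold (95% CI 1.81 to 3.70; adjusted p = 0.00196) came with 1 array in each group far above the rest. Small rises in the CAR and PXR list were those of Gstm1, given above, the P450 reductase Por (1.42-fold; adjusted p = 3.47e-04), Cyp2c6v1 (1.16-fold; adjusted p = 0.00135) and Cyp3a2 (1.12-fold; adjusted p = 0.0111). Cyp3a, Ugt2b, Gsta and Sult genes have close relatives, and whether their probe sets read each other's transcripts was not tested.

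Probe sets that list several genes were assigned to none, and 14 of them were called, 13 higher and 1 lower. The one under Cyp2b1 and Cyp2b2 rose 2.74-fold (95% CI 2.06 to 3.64; adjusted p = 4.30e-05), and a pair under Ugt1a genes rose 1.37-fold (adjusted p = 9.50e-08) and 1.51-fold (adjusted p = 9.67e-08). These were chosen after their values were seen. A further 39 probe sets called higher and 29 called lower had no gene symbol. Of these, 1368718_at stood 16.4-fold higher (95% CI 5.95 to 45.1; adjusted p = 0.00126), with values from 11.28 to 12.48 at 641 mg/kg. In the pool it ran from 7.30 to 9.94 on all arrays but 3 of the 6 of 6.41 mg/kg, which lay at 3.71, 3.71 and 4.12. Probe set 1395536_at was 1.57-fold lower (adjusted p = 0.00403).

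Markers of other cell types showed 1 call, in bulk tissue where fewer cells of a type and less RNA per cell cannot be told apart. Cd8a, of cytotoxic T lymphocytes, was 1.38-fold lower in 1 of 3 probe sets (95% CI 1.16 to 1.65, adjusted p = 0.0446). Its mean was 4.45 at 641 mg/kg, below every array median, and 4.92 in the pool. Cd8a was not called without any 1 of replicates 2 to 6 of 641 mg/kg (adjusted p from 0.0663 to 0.183). The mean over the 12 T and NK markers ran from 4.19 to 4.44 at 641 mg/kg against 4.21 to 4.63 in the pool. None of the 9 macrophage, 10 stellate cell, 8 endothelial, 5 cholangiocyte, 4 B lymphocyte, 4 neutrophil, 4 erythroid, 8 exocrine pancreas or 7 muscle markers was called, with 0, 1, 0, 2, 0, 0, 0, 1 and 0 of them at an unadjusted p under 0.05. The macrophage mean ran from 8.22 to 8.68 at 641 mg/kg against 7.76 to 9.01 in the pool, and the cholangiocyte mean from 5.08 to 5.48 at 641 mg/kg against 4.78 to 5.38 in the pool. The part of these cells in the gene results was not tested. The members of smallest p were Cd5l (1.14-fold), Pdgfrb (1.19-fold lower), Kdr (1.06-fold lower), Cftr (1.10-fold), Blk (1.07-fold), Csf3r (1.06-fold lower), Hbb (1.02-fold), Cela1 (1.27-fold lower) and Ckm (1.08-fold lower), with adjusted p-values from 0.0805 to 0.961.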

How the data were processed

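Transcripts were measured on Affymetrix arrays, and the deposited log2 levels were computed by the authors with RMA (affy), per the submitters' processing notes, which give neither version nor settings. The range of the values, 1.526 to 14.588, fits a log2 scale. No further normalization was applied and no detection calls were used, so dim probe sets were kept. The number of arrays limits the precision. Of 31099 probe sets, 57 controls were left out. By the platform annotation 20826 of the rest have 1 symbol, 436 several and 9780 none. Symbols were updated through a GRCr8 gene table, 20758 by gene ID and 2 by accession, and 66 were kept.

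Groups came from the sample titles. limma 3.58.1 in R 4.3.3 (lmFit and eBayes) compared 6 arrays of 641 mg/kg with the 18 pooled arrays, two-sided, with Benjamini-Hochberg adjustment over 31042 probe sets and calls at an adjusted p under 0.05. R/maanova, which the series design text names, was not used. Intervals are 95% confidence intervals of the moderated fit, and fold changes are powers of 2 of the log2 difference. Before use, the fit was tested on simulated data with known changes. No array duplicated another, and correlation within groups ran from 0.991 to 0.996.

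Gene lists (32 functional, 11 of cell types), members and rules were chosen with earlier results of these data known. Named genes were up to 20 called falls and 10 called rises of largest size with all 6 arrays of 641 mg/kg on 1 side of the pooled mean, up to 10 called rises and 10 called falls under 1.5-fold of smallest adjusted p, and, for each list, up to 2 called members in either direction or else its member of smallest p. Other members of the lists, and any gene outside this rule, were chosen after their values were seen. Promoters are from RefSeq, GRCr8.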

Additional observations from a re-analysis of the deposited data

Results flagged for a closer look

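In groups of 6, an array was singled out where its gap to the nearest other array took an unusually large part of the group's range (Dixon's test). This held for 33 combinations of a named gene and a dose group (8.42% of those examined), where chance gives about 1 in 20. Of the 33, 6 were in the 641 mg/kg group, 9 at 0.06, 13 at 0.641 and 5 at 6.41 mg/kg. Replicate 2 of 0.641 mg/kg was the lowest array of its group in 7 genes, with the nearest array in brackets: Scd at 9.55 (10.09), Prodh at 8.85 (9.08), Gulo at 11.57 (11.75), Slco2a1 at 10.27 (10.43), Cyb5a at 13.09 (13.18), Slc7a5 at 5.31 (5.88) and Mdm2 at 7.21 (7.40). Array weights of limma also gave it the lowest weight, 0.643. Without it, 316 probe sets were called higher and 209 lower.

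At 641 mg/kg, Nqo1 stood at 10.03 in replicate 4 (nearest 8.59), Mdm2 at 8.16 in replicate 2 (7.86) and Psmb8 at 9.56 in replicate 6 (8.99), each the highest of its group. Serpind1 at 12.03 in replicate 2 (12.28), Psmb3 at 10.20 in replicate 3 (10.33) and Gclc at 10.15 in replicate 6 (10.40) were the lowest.

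At 0.06 mg/kg, replicate 3 was highest in Cyp17a1 at 8.59 (nearest 7.58) and lowest in Oat at 9.27 (10.06), Pkdcc at 7.22 (7.95) and Cd5l at 8.73 (9.23). Replicate 4 was lowest in Ccnd1 at 8.49 (9.05), Slc27a5 at 11.92 (12.07) and Ugt2b7 at 3.81 (4.30). Replicate 2 was lowest in Cyp4a3 at 11.12 (11.25) and highest in Nqo1 at 9.36 (7.24).

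At 0.641 mg/kg, the remaining values were Npas2 at 7.79 (nearest 7.45), Melk at 3.84 (3.43) and Aldh1l1 at 11.53 (11.36) as highest, and Nr4a2 at 4.05 (4.21), Gpi at 8.52 (8.77) and Ugt2b7 at 3.71 (4.38) as lowest. At 6.41 mg/kg, the lowest arrays were those of Hbb at 11.39 (11.94), Ugdh at 10.91 (11.06), C8h11orf54 at 8.44 (8.72), Ugt2b1 at 11.93 (12.16) and Abcc3 at 4.43 (5.14).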

How the results depend on the processing

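None of the 81 called named genes changed direction under the alternatives run. Against 0.06 mg/kg alone, 112 probe sets were called higher and 36 lower, of which 73 and 29 changed by less than 1.5-fold, and 43 of the 81 called named genes and 40 of the 94 called list members stayed called. The same values were 89, 57, 52, 45, 48 and 43 against 0.641 mg/kg alone, and 114, 49, 72, 38, 51 and 49 against 6.41 mg/kg alone; these fits hold fewer arrays. Tested against a minimum change of 1.2-fold they were 34, 6, 4, 1, 21 and 20. With the dose group as a random block (correlation -0.0473) the counts were 680 higher and 475 lower. Of these, 631 and 456 were under 1.5-fold, and 144 list members were called. With a group mean of at least 6, which left 11074 probe sets, 451 were higher and 352 lower, 417 and 339 of them under 1.5-fold. Leaving out 1 array of 641 mg/kg in turn gave 219 to 331 higher, 128 to 170 lower, 177 to 284 small rises, 117 to 154 small falls, 69 to 73 named genes and 73 to 91 list members. The rises were fewest without replicate 2 (219) or 1 (220) and the falls without replicate 5 (128) or 2 (130). With the replicate number as a block, 287 were higher and 185 lower (244 and 171 under 1.5-fold), and 75 named genes stayed called; Ccnd1, Cd8a, Ctsl, Fas, Irs3 and Nsdhl did not. Same-numbered arrays did not deviate together on average (mean r 0.0129, against -0.00249 for other numbers). The r of the 36 same-numbered pairs ran from -0.183 to 0.321, with 3 of them over 0.1. Of the 24 arrays, 4 were closest to their own number. A mean near 0 cannot exclude that some of the numbers pair arrays. The 3 lower doses as separate levels (313 and 193), all 36 arrays (367 and 244), median centring (302 and 183), repeated quantile normalization (327 and 246), a variance trend with robust moderation (388 and 268) and array weights (323 and 223) kept both counts within 1.5 times, as did the mean of a gene's probe sets (295 and 197 of 14217 genes). With all 36 arrays Ccnd1, Gpi, Irs3, Myc, Nr4a2 and Nsdhl were not called. Leaving out replicate 2 of 0.641 mg/kg, chosen after seeing the data, gave 316 and 209. Of the lists without a call, those for complement and coagulation, acute phase, the amino acid response, heat shock and the clock had at most 1 call in a direction in some of these fits, and those for ribosomal proteins, endoplasmic reticulum stress and interferon had none. The cause of these shifts was not tested. In the block fit 641 mg/kg is itself a whole block and the correlation was negative, so its larger counts are not read as a gain. The files hold no detection calls, so signal over background could not be judged.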

Other observations

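The 12 arrays outside the comparison, 6 of 64.1 mg/kg and 6 of vehicle, share no array with it and were described without a test. Of the 332 probe sets called higher at 641 mg/kg, 292 (88.0%) stood above vehicle in the mean of 64.1 mg/kg, with a median log2 difference of 0.113. Of the 204 called lower, 39 (19.1%) stood above vehicle, with a median of -0.0760. Over all 31042 probe sets 51.6% stood above vehicle, with a median of 0.0032. The small changes alone gave like values, with 253 of 289 small rises above vehicle (87.5%) and 38 of 193 small falls (19.7%). Probe sets are not independent of each other, so these shares carry no error.

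Among the named falls, Scd averaged 9.30 at 64.1 mg/kg against 9.94 in vehicle, Slc6a6 8.92 against 9.40, Fabp5 9.18 against 9.69 and Gnmt 11.43 against 11.78. Ass1 averaged 12.22 at 64.1 mg/kg against 12.51 in vehicle and Cpt1a 10.05 against 10.33. Apoa4 (11.34 at 64.1 mg/kg against 11.32 in vehicle) and Elovl5 (12.10 against 12.11) were nearly level. Cyp17a1 went the other way, at 7.48 for 64.1 mg/kg against 7.35 for vehicle. Among the rises, Blvrb averaged 10.18 at 64.1 mg/kg against 9.92 in vehicle and Gstm1 12.95 against 12.69, while Psme1 (11.18 against 11.12) and Nqo1 (7.56 against 7.54) were nearly level.

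Probe set 1368718_at, which has no gene in the annotation used, lay at 10.48, 10.20, 10.57, 3.79, 11.02 and 10.67 at 64.1 mg/kg and at 8.36, 7.79, 3.63, 7.74, 8.51 and 3.92 in vehicle. Together with the 3 low arrays of 6.41 mg/kg, 6 of the 36 arrays stood at 4.12 or lower, in 3 of the 6 groups, and the other 30 at 7.30 or higher.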
